A study of Mus musculus with 9 samples.

Results

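Expression of 9 myelin and oligodendrocyte genes, Mbp, Mog, Mag, Mobp, Cnp, Cldn11, Opalin, Ugt8a and Myrf, was followed in mouse brain after intracerebral hemorrhage (ICH). They were chosen by gene symbol, with earlier results of these data known, and all 9 were found among the 55401 genes of the deposited table. RNA of the basal ganglia was sequenced in 9 libraries from wildtype mice, 3 in each of 3 groups, and the study describes adult male C57BL mice. The Laminaria-treated ICH libraries are labelled day 4, day 5 and day 6 for libraries 1, 2 and 3, with no dose or preparation of Laminaria given. The study's methods describe no Laminaria group and name another agent, Leukadherin-1, for a treated ICH group, so what these mice received is known from the labels alone and is uncertain. The ICH libraries, from mice given the vehicle for Laminaria, and the sham libraries, from mice with needle insertion and no blood, are all labelled day 3. ICH was made by injecting autologous whole blood into the right basal ganglia, and every group had a needle passed into the tissue. Because all Laminaria libraries are later than all others, treatment and day cannot be told apart. Whether libraries were made from separate animals is not stated, so p-values measure only the spread between these libraries.

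Oligodendrocytes wrap axons of the central nervous system in myelin, a stack of lipid-rich membrane held together by a small set of very abundant proteins. The same cells support the axon and cluster ion channels at the gaps between myelin segments, the nodes of Ranvier. MYRF, the protein of Myrf, is a membrane-bound transcription factor that is cut free, enters the nucleus and switches on myelin genes once an oligodendrocyte matures. The basal ganglia contain bundles of myelinated fibres that cross the striatum, so their RNA holds a large oligodendrocyte share in any animal.

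Promoter sequences were read from RefSeq (build GRCm38.p6) for the 7 genes that matched the table, which are all but Mbp and Myrf. Both strands of the window from 250 bases before to 50 bases after the start were searched for the letters CTGGCAC and CTGGTAC, the core that MYRF is known to bind. They were found in 7.10% of 32851 mouse promoters of the same length and in 4 of the 7 genes, namely Mog, Mag, Cnp and Opalin. Mog, Mag and Cnp are shown because their match lies before the start, with its first base 83, 68 and 81 bases before it, and Cldn11 because it holds no match and was the gene whose level differed most from the others after ICH. Capitals mark the match, and each sequence is the 250 bases before the start, 5′ to 3′ on the gene's own strand. The positions are chr17:37023399-37023648 on the minus strand for Mog, chr7:30914864-30915113 on the minus strand for Mag, chr11:100574689-100574938 on the plus strand for Cnp and chr3:31149670-31149919 on the plus strand for Cldn11.
Mog: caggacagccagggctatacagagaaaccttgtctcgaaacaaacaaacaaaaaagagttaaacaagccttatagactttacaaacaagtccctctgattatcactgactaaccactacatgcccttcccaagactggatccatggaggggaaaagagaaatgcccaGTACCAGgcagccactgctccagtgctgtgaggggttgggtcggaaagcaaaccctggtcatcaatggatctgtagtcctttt
Mag: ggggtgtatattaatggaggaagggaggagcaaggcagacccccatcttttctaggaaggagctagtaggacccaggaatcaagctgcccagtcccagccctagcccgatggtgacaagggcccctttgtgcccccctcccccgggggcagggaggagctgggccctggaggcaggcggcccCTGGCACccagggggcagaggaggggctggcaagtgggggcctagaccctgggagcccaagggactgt
Cnp: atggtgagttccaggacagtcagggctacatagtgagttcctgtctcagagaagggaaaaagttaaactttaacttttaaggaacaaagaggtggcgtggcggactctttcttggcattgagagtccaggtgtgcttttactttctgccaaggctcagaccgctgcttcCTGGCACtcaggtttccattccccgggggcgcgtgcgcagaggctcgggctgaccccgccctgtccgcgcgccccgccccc
Cldn11: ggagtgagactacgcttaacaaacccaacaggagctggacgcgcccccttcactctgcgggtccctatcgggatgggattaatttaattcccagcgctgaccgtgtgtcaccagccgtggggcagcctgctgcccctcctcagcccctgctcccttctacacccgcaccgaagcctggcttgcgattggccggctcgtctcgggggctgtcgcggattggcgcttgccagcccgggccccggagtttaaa
In Opalin the match was GTGCCAG, with its first base 36 bases after the start. The letters ACAAAG, a core of SOX factors such as SOX10, were in 4 of the 7 windows and in 18.7% of all promoters, and CAGCTG, an E-box, was in 1 of the 7 and in 16.3% of all. A match is a run of letters and was not tested as a binding site.

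Deposited counts summed to 51307799 to 74649716 per library, with 6.01% to 7.32% from mitochondrially encoded genes. Low counts piled up with a period of 3.71 to 3.75, so the totals exceed the number of sequenced fragments. Levels are given as FPKM, fragments per kilobase of transcript scaled to the size of the library, as deposited. The least covered of the 9 genes, Opalin, had at least 1983 counts in every library, so counting error was small beside the spread between libraries. Sham library 1 stood apart in the myelin genes. It was the highest of the 3 sham libraries for 9 of the 9 genes, whereas it was the highest for 32.0% of all 16414 genes tested. It was also the highest of all 9 libraries for 7 of the 9 genes, and for 1813 of the 16414. The summed level of the 9 genes was 1235 FPKM in sham 1, and 950.2 and 945 FPKM in sham 2 and 3. Its summed level of 10 markers of striatal projection neurons was the lowest of the sham libraries, at 1014 FPKM against 1559 and 1445 FPKM. The part of the tissue piece in these values was not tested, and fold changes of the 9 genes against sham are given with and without sham 1.

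The summed FPKM of the 9 genes 3 days after ICH lay between that of sham 1 and those of the other sham libraries. It was 1011, 1059 and 1124 FPKM in the Laminaria-treated ICH libraries and 1116, 1093 and 1047 FPKM in the ICH libraries. Every injured library was below sham 1 and above sham 2 and sham 3 in FPKM. FPKM summed over all genes was 326898 to 331293 in ICH, 308888 to 326846 in Laminaria-treated ICH and 298610 to 299728 in sham. As a share of that sum ICH 3 (0.316%) was below sham 2 (0.318%), so the order depends on the scaling. With sham 1 included, the mean sum was 1085 FPKM in ICH, 1065 FPKM in Laminaria-treated ICH and 1044 FPKM in sham, with overlap of the groups. The 9 genes took 0.316% to 0.341% of all FPKM in ICH, 0.327% to 0.344% in Laminaria-treated ICH and 0.315% to 0.414% in sham. Mobp was the most abundant, at rank 62 to 85 of all genes by FPKM, followed in mean level over the 9 libraries by Cldn11, Cnp, Mbp, Mag and Mog. Ugt8a, Myrf and Opalin were far lower. In bulk tissue fewer cells of a type and less RNA per cell cannot be told apart.

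**Figure D1:**
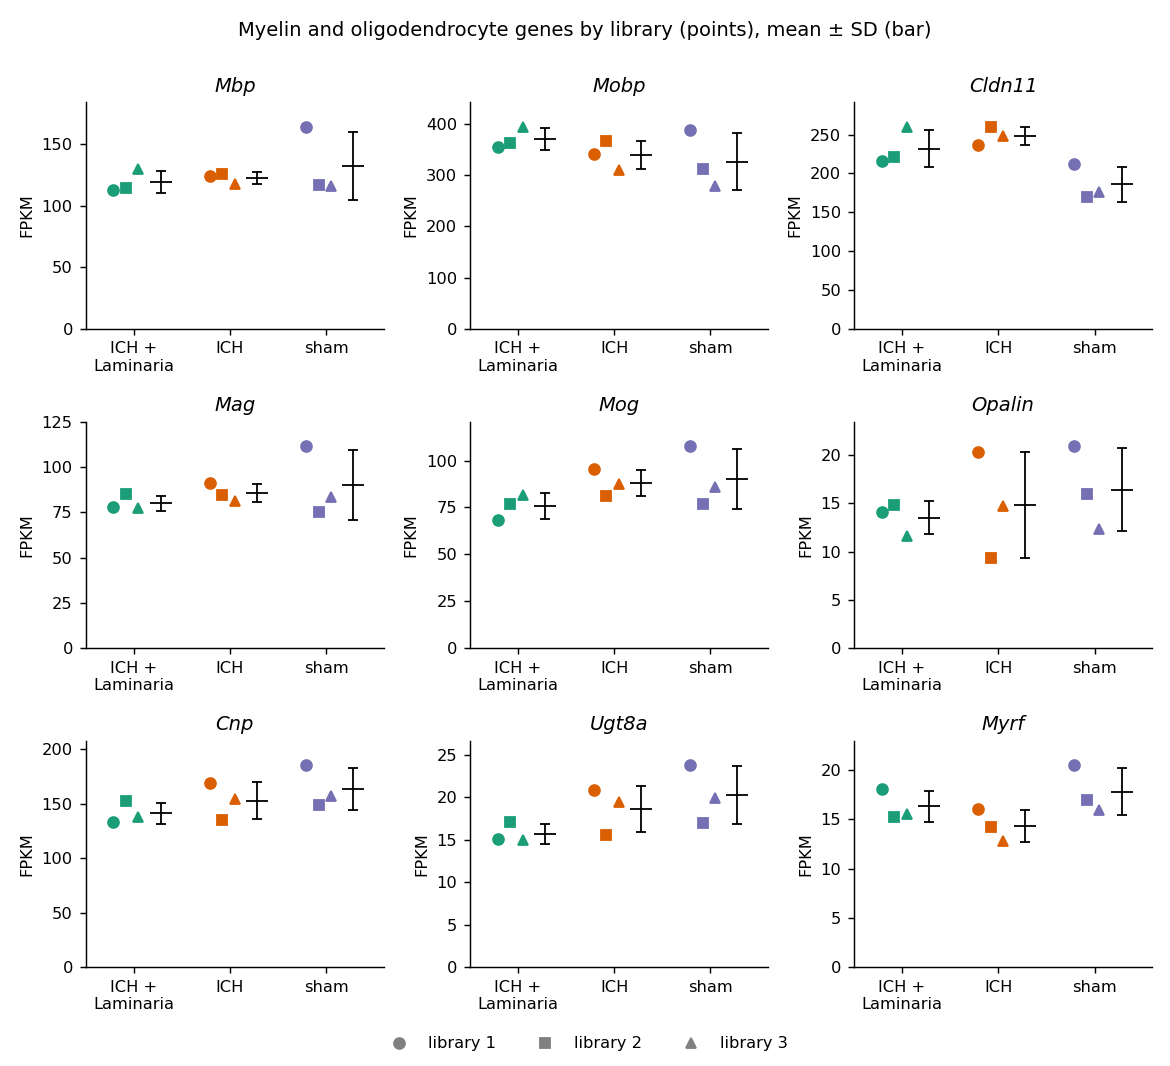
Levels of the 9 genes in FPKM (y axis, from 0) in Laminaria-treated ICH, ICH and sham libraries (x axis), where each point is a library, its shape the library number, and the bar the mean ± SD of 3 libraries. Sham 1, the circle in the right column of each panel, is the highest sham library for all 9 genes, and Cldn11 is the gene whose 3 ICH libraries (236 to 260.3 FPKM) lie above its 3 sham libraries (170.1 to 212 FPKM).

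In the comparison of ICH with sham by edgeR's quasi-likelihood test, 0 of the 9 genes were called at an adjusted p under 0.05, where 10.6% of the 16414 genes tested were called. At an unadjusted p under 0.05 there were 2 of 9, Cldn11 and Myrf, against 29.5% of all genes. DESeq2 called 1 of 9, Cldn11, where it called 21.6% of all genes, and limma called 0 of 9 where it called 8.71%. The median log2 fold change of the 9 was -0.14, and that of all genes tested was 0.01. Their median absolute log2 fold change was 0.15, and that of all genes was 0.25. Without sham 1 the median of the 9 was 0.04, with 0 of 9 called. EdgeR then called 0 of all 16414 genes, so that count could not differ from 0. The 95% intervals reached from 0.630-fold to 1.56-fold over the 8 genes other than Opalin, so larger changes lay outside them, and from 0.525-fold to 1.47-fold for Opalin.

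Mbp and Mobp encode cytoplasmic proteins of compact myelin. Myelin basic protein, which zips the inner membrane faces together, is the product of Mbp (ENSMUSG00000041607, GRCm38 chromosome 18, 82475146 to 82585637, plus strand). Mbp was at 113, 114 and 129.5 FPKM in Laminaria-treated ICH libraries, 124, 126 and 117 FPKM in ICH libraries and 164, 117 and 116 FPKM in sham libraries. Sham 1 was well above the other 8 libraries, which lay close together, and the groups overlapped. The log2 fold change of ICH over sham was -0.15 ± 0.16 (SE, edgeR adjusted p = 0.580), and 0.04 without sham 1. The myelin-associated oligodendrocyte basic protein is encoded by Mobp (ENSMUSG00000032517, chromosome 9, 120149707 to 120176091, plus strand). Mobp was at 356, 363 and 395 FPKM in Laminaria-treated ICH, 342, 366 and 311 FPKM in ICH and 389, 313 and 279 FPKM in sham. Its sham libraries spanned the ICH libraries on both sides. The log2 fold change of ICH over sham was 0.02 ± 0.15 (SE, edgeR adjusted p = 0.959), with a 95% interval of -0.34 to 0.37, and 0.17 without sham 1.

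Mag and Mog encode surface proteins of the immunoglobulin family. Myelin-associated glycoprotein sits on the innermost wrap, facing the axon. Its gene is Mag (ENSMUSG00000036634, chromosome 7, 30899176 to 30914865, minus strand), and the promoter match above reads CTGGCAC in both Mag and Cnp. Mag was at 77.7, 84.9 and 77.2 FPKM in Laminaria-treated ICH, 91.2, 84.8 and 81.3 FPKM in ICH and 112, 75.3 and 83.3 FPKM in sham. All 6 libraries of the injured groups lay between the lowest and the highest sham library. ICH over sham gave a log2 fold change of -0.11 ± 0.16 (SE, edgeR adjusted p = 0.695), and 0.08 without sham 1. Myelin oligodendrocyte glycoprotein, on the outermost wrap, is encoded by Mog (ENSMUSG00000076439, chromosome 17, 37010743 to 37023398, minus strand). Mog was at 68.5, 76.7 and 81.9 FPKM in Laminaria-treated ICH, 95.3, 81.3 and 87.5 FPKM in ICH and 108, 77.0 and 85.7 FPKM in sham. The ICH libraries were all inside the sham range, and Laminaria 1 and 2 were below every sham library. ICH over sham gave -0.08 ± 0.14 (log2, SE, edgeR adjusted p = 0.774), and 0.08 without sham 1.

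Cnp encodes CNPase, an enzyme of the cytoplasmic channels of non-compact myelin (ENSMUSG00000006782, chromosome 11, 100574904 to 100591729, plus strand). Its gene overlaps Dnajc7 on the other strand, and the strand setting of the counting is not given in the sources used here. Cnp was at 133, 152 and 138 FPKM in Laminaria-treated ICH, 169, 136 and 154 FPKM in ICH and 185, 149 and 157 FPKM in sham. The highest ICH library, ICH 1, was above 2 of the 3 sham libraries, and the lowest, ICH 2, was below all of them. The log2 fold change of ICH over sham was -0.14 ± 0.13 (SE, edgeR adjusted p = 0.529), with a 95% interval of -0.45 to 0.17, and -0.04 without sham 1.

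Opalin, Ugt8a and Myrf were the 3 least abundant of the 9. Opalin (ENSMUSG00000050121, chromosome 19, 41061710 to 41077113, minus strand) encodes a transmembrane protein of mature oligodendrocytes. It was at 14.1, 14.9 and 11.6 FPKM in Laminaria-treated ICH, 20.4, 9.35 and 14.8 FPKM in ICH and 20.9, 15.9 and 12.4 FPKM in sham. It varied more between libraries than any other of the 9, 2.24-fold between its lowest library, ICH 2, and its highest, sham 1. ICH over sham gave a log2 fold change of -0.19 ± 0.31 (SE, edgeR adjusted p = 0.740), and 0.03 without sham 1 or without ICH 2. Ugt8a (ENSMUSG00000032854, chromosome 3, 125865271 to 125938619, minus strand) encodes the enzyme that makes galactosylceramide, the main glycolipid of myelin. Ugt8a was at 15.1, 17.1 and 14.9 FPKM in Laminaria-treated ICH, 20.9, 15.6 and 19.4 FPKM in ICH and 23.7, 17.0 and 20.0 FPKM in sham. The ICH and sham libraries overlapped, and Laminaria 2 alone of the Laminaria-treated ICH libraries was above the lowest sham library. ICH over sham gave -0.16 ± 0.16 (log2, SE, edgeR adjusted p = 0.572), and -0.02 without sham 1.

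Myrf, the transcription factor (ENSMUSG00000036098, chromosome 19, 10208272 to 10240748, minus strand), had the lowest fold change of the 9 after ICH. It was at 18.1, 15.3 and 15.6 FPKM in Laminaria-treated ICH, 16.0, 14.2 and 12.8 FPKM in ICH and 20.5, 16.9 and 16.0 FPKM in sham. In FPKM ICH 1 was above the lowest sham library by a small margin, and the other 2 ICH libraries were below all 3 sham libraries. FPKM summed over all genes was higher in every ICH library than in every sham library. As a share of that sum ICH 1 was below all 3 sham libraries too. The log2 fold change of ICH over sham was -0.35 ± 0.13 (SE), with a 95% interval of -0.67 to -0.04 and an edgeR adjusted p of 0.137, which did not pass. Without sham 1 it was -0.23 with an adjusted p of 0.304, and over all 19 alternatives it lay between -0.44 and -0.23 with an adjusted p of 0.0670 to 0.304. Set against the mean log2 FPKM of the other 8 genes within each library, Myrf was at -2.74 to -2.49 in ICH and -2.36 to -2.21 in sham. These ranges did not overlap, and the mean difference between the groups was -0.30 on the log2 scale. This relative measure was not computed over all genes.

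Cldn11 was the exception to the low or near-zero fold changes. It encodes claudin-11, which forms the tight junctions between the wraps of myelin, and it is also known from fibroblasts of the meninges and from Sertoli cells (ENSMUSG00000037625, chromosome 3, 31149920 to 31164324, plus strand). Cldn11 was at 216, 221 and 259 FPKM in Laminaria-treated ICH, 236, 260.3 and 249 FPKM in ICH and 212, 170.1 and 176 FPKM in sham. All 3 ICH libraries were above all 3 sham libraries in FPKM, which was so for 1 of the 9 genes, while 23.1% of all genes tested were higher without overlap and 13.2% lower. The 3 Laminaria-treated ICH libraries were above all sham libraries in FPKM too, the lowest of them by a small margin over sham 1. FPKM summed over all genes was 308888 to 326846 in Laminaria-treated ICH and 298610 to 299728 in sham. As a share of that sum Laminaria 1 and 2 were below sham 1, so this separation depends on the scaling. The log2 fold change of ICH over sham was 0.38 ± 0.11 (SE), or 1.299-fold with a 95% interval of 1.08 to 1.56, and the edgeR adjusted p of 0.0751 did not pass. DESeq2 gave 0.36 with an adjusted p of 0.0339, which passed. Over all 19 alternatives the log2 fold change was 0.28 to 0.49 and the adjusted p 0.0339 to 0.216, and without sham 1 they were 0.49 and 0.0691.

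The balance of Cldn11 with the other myelin genes within a library separated the injured from the sham libraries more widely than its level alone. The ratio of Cldn11 to Mbp was 1.905, 1.929 and 2.002 in Laminaria-treated ICH, 1.901, 2.066 and 2.120 in ICH and 1.29, 1.46 and 1.52 in sham. The ratio of Cldn11 to Mog was 3.15, 2.88 and 3.17 in Laminaria-treated ICH, 2.48, 3.20 and 2.84 in ICH and 1.97, 2.21 and 2.05 in sham. Every injured library was above every sham library in both ratios. Relative to the mean log2 FPKM of the other 8, Cldn11 was 1.89 to 2.17 higher in Laminaria-treated ICH, 1.81 to 2.23 higher in ICH and 1.43 to 1.58 higher in sham. The means of ICH and sham differed by 0.52, and those of Laminaria-treated ICH and sham by 0.48. Other members were also without overlap in this relative measure. They were Myrf (-0.30) in ICH against sham, and Mobp (0.34) and Ugt8a (-0.28) in Laminaria-treated ICH against sham. Neither this measure nor the ratios were computed over all genes, so they have no share to set beside them. With 3 libraries against 3, an exact permutation test cannot go below 0.10, and these ratios were looked at because Cldn11 stood out, so none was run.

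**Figure D2:**
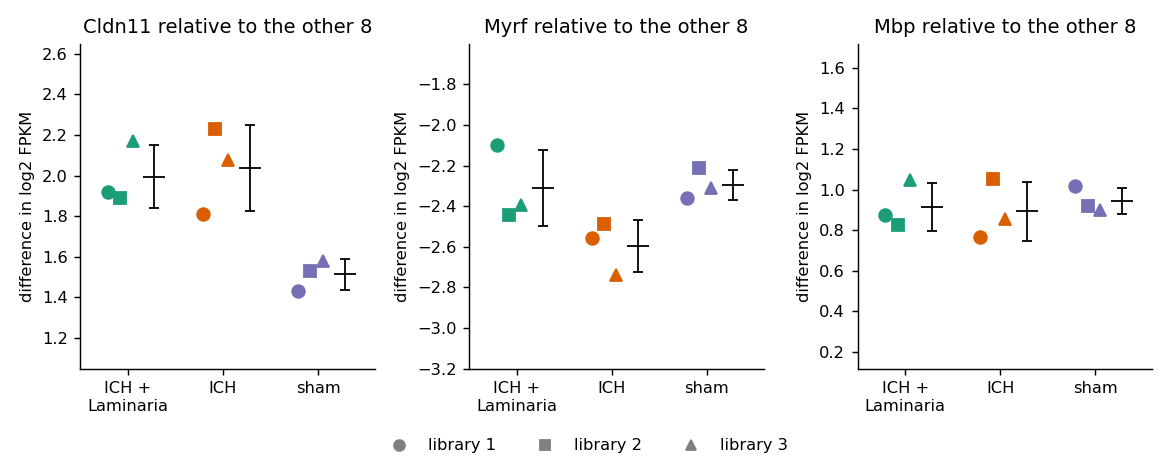
Level of Cldn11, Myrf and Mbp relative to the other 8 myelin genes within each library, as the difference of log2 FPKM from their mean (y axis, each spanning the same width), in Laminaria-treated ICH, ICH and sham libraries (points) with the mean ± SD of 3 libraries (bar). For Cldn11 the 3 sham libraries (1.43 to 1.58) lie below all injured ones, for Myrf the 3 ICH libraries lie below the sham and Laminaria-treated ICH libraries, and for Mbp the groups overlap.

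Other cells that the tissue pieces could hold also express Cldn11, and their markers were summed per library. A list of 10 markers of meningeal and perivascular fibroblasts, added after the values were seen, summed to 31.2 to 94.9 FPKM in Laminaria-treated ICH, 52.3 to 64.2 FPKM in ICH and 18.4 to 27.9 FPKM in sham. Of these 10, 5 rose in ICH against sham, Igf2, Col1a2, Col1a1, Foxc1 and Mgp, and 0 fell, where 7.42% of all genes rose and 3.16% fell, with a list median of 1.05 on the log2 scale. None of the 10 was at 0 in any library, and their part in the level of Cldn11 was not tested. A list of 6 choroid plexus markers summed to 57.1, 1733 and 1642 FPKM in Laminaria-treated ICH, 3592, 1323 and 1822 FPKM in ICH and 492, 70.4 and 911 FPKM in sham. Every ICH library was above every sham library in this sum. Most of the sum was Ttr, at 1307 to 3541 FPKM in ICH and 64.8 to 892 FPKM in sham. Taken singly, 3 of the 6 markers were higher in ICH than in sham without overlap, where 23.1% of all genes were. In the sum the Laminaria-treated ICH libraries overlapped both other groups, with Laminaria 1 lowest of the 9 libraries. Sham 3 was above the other sham libraries, and the part of choroid plexus in the level of Cldn11 was not tested. Schwann cell markers, for the myelin of peripheral nerve, summed to no more than 1.33 FPKM in any library over 6 genes, with Pmp2 listed at 0 throughout, and none was abundant enough to be tested.

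Laminaria-treated ICH libraries were next set against ICH libraries. In this comparison 0 of the 9 myelin genes were called by edgeR, by DESeq2 or by limma. Of 16654 genes edgeR called 0.0180% (3 genes), DESeq2 0.288% and limma 0.0180%. An unadjusted p under 0.05 by edgeR was found for 0 of the 9 and for 3.36% of all genes. The groups overlapped for all 9, against 9.02% of all genes that did not overlap. The median log2 fold change of the 9 was -0.10, and that of all genes was -0.0016. The lowest were Ugt8a at -0.25 ± 0.14 and Mog at -0.22 ± 0.10 (SE), and the highest were Mobp at 0.12 ± 0.11 and Myrf at 0.19 ± 0.12. Cldn11 was at -0.10 ± 0.09, Mag at -0.10 ± 0.10, Cnp at -0.12 ± 0.12, Mbp at -0.05 ± 0.09 and Opalin at -0.13 ± 0.28. Adjusted p ranged between 0.951 and 0.965 by edgeR. The 95% intervals of the 8 genes other than Opalin stayed between 0.670-fold and 1.40-fold. Relative to the mean of the other 8 in each library, the Laminaria-treated ICH libraries differed from the ICH libraries by 0.28 for Myrf and by -0.17 for Mog on the log2 scale. Both were without overlap of the 3 and 3 libraries, and the remaining members overlapped. This relative measure was not computed over all genes, so it has no share to set beside it, and no difference is read from it.

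Against sham, Laminaria-treated ICH libraries also had 0 of the 9 genes called by edgeR, DESeq2 or limma, where 0.0183% of 16405 genes were called by edgeR (3 genes), 8.08% by DESeq2 and 0.0305% by limma. At an unadjusted p under 0.05 there was 1 of 9, Ugt8a, against 17.9% of all genes. This comparison shares its sham libraries with the first and its treated libraries with the second. Ugt8a had the lowest log2 fold change, -0.42 ± 0.15 (SE, 95% interval -0.77 to -0.07, edgeR adjusted p = 0.213), followed by Opalin at -0.33 ± 0.21, Mog at -0.31 ± 0.14 and Cnp at -0.27 ± 0.12. Mag was at -0.23 ± 0.16, Mbp at -0.21 ± 0.16 and Myrf at -0.18 ± 0.13, while Mobp was at 0.13 ± 0.15 and Cldn11 at 0.26 ± 0.12 (edgeR adjusted p = 0.324). Cldn11 was the 1 gene of the 9 whose groups did not overlap, where 17.8% of all genes were higher without overlap and 9.10% lower. The median of the 9 was -0.23, against 0.01 over all genes, and it was -0.06 without sham 1. Without sham 1 the log2 fold changes were -0.28 for Ugt8a, -0.16 for Cnp, -0.15 for Mog, -0.11 for Opalin, -0.06 for Myrf, -0.04 for Mag and -0.01 for Mbp, and 0.28 for Mobp and 0.37 for Cldn11.

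**Figure D3:**
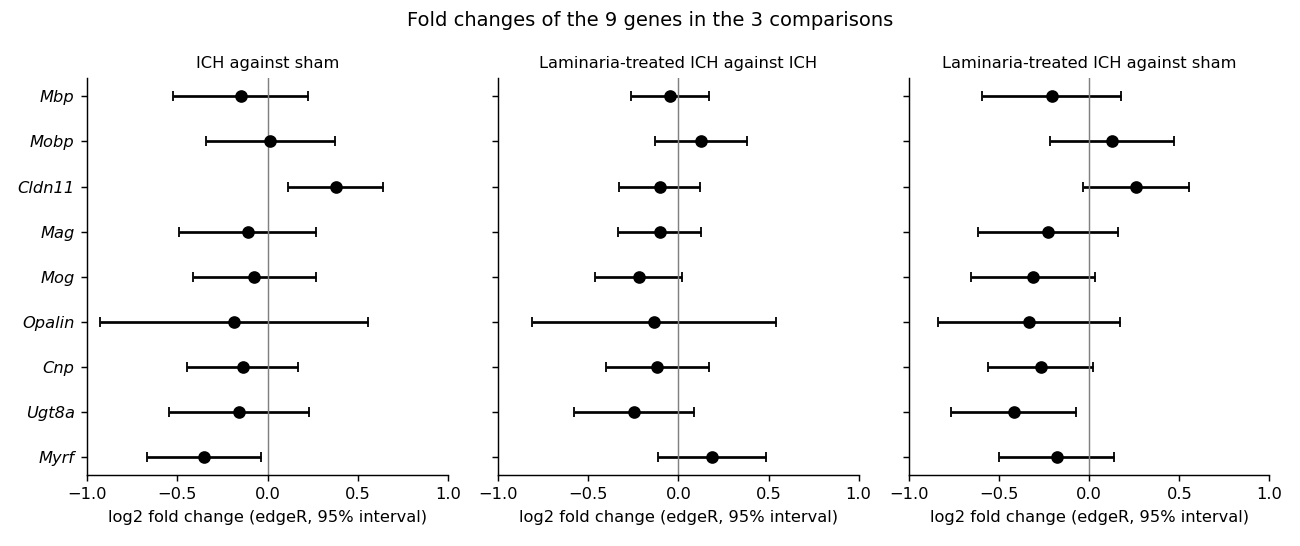
Log2 fold change (x axis) of each of the 9 genes (rows) for ICH against sham, Laminaria-treated ICH against ICH and Laminaria-treated ICH against sham, with the 95% interval from edgeR as a bar. The intervals that leave out 0 are those of Cldn11 (0.12 to 0.64) and Myrf (-0.67 to -0.04) on the left and of Ugt8a (-0.77 to -0.07) on the right, none with an adjusted p under 0.05.

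How far the 9 genes varied together between libraries depended on sham 1. The correlations that follow describe 9 libraries that share groups, depth and tissue pieces, on log2(FPKM + 1). Over the 36 pairs the median Pearson r was 0.51, with 6 pairs below 0, and without sham 1 it was 0.12, with 17 below 0. After each group's mean was taken away the median was 0.60, with 1 pair below 0, and without sham 1 it was 0.08, with 18 below 0. With the mean of the other 8, r was 0.92 for Mag, 0.85 for Mbp, 0.83 for Mog and 0.78 for Cnp, and without sham 1 these were 0.66, 0.26, 0.69 and 0.54. For Ugt8a, Opalin, Myrf and Mobp it was 0.69, 0.62, 0.41 and 0.29, and without sham 1 0.41, 0.35, -0.40 and -0.12. Cldn11 was at -0.04 with the mean of the other 8, and at 0.54 after the group means were taken away, where its r was 0.88 with Mbp and 0.78 with Mobp. Without sham 1 these values for Cldn11 and the mean of the other 8 were 0.14 and -0.16. Among the 14256 genes whose mean level reached 1 FPKM, the 10 whose profile was closest to that of the 9 had r of 0.899 to 0.965, and they were Gm9442, Armh4, Aimp1, Tmem63a, Stk32b, Pllp, Rpl15-ps3, Scd1, Kctd7 and mt-Ts2. Without sham 1 their r was 0.514 to 0.921, and 0 of these 10 were among the 10 closest. Pllp encodes plasmolipin, a protein of myelin, and Scd1 a fatty acid desaturase.

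Of 30 other myelin and mature oligodendrocyte genes, 3 rose and 0 fell in ICH against sham by edgeR, where 7.42% of all genes rose and 3.16% fell, and their median log2 fold change was -0.04. The 3 that rose were Apod, the lipid carrier apolipoprotein D, Trf, the iron carrier transferrin, and Gltp, a glycolipid transfer protein. Apod was at 265, 273 and 325 FPKM in ICH and 153, 148 and 128 FPKM in sham, a log2 fold change of 0.97 ± 0.12 (SE, edgeR adjusted p = 0.0214). Trf was at 328, 359.8 and 366 FPKM in ICH and 186, 173 and 216 FPKM in sham, 0.83 ± 0.11 (edgeR adjusted p = 0.0221). For these 2 genes all ICH libraries were well above all sham libraries. Gltp gave 0.67 ± 0.14 (edgeR adjusted p = 0.0339). The 3 are not restricted to oligodendrocytes, and Apod and Trf are also made by fibroblasts and by choroid plexus.

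Of 17 transcription factors and regulators of the oligodendrocyte lineage, which act upstream of myelin, 1 rose, 1 fell and 15 did not pass, with a median of 0.14, and these counts are near the shares over all genes (7.42% higher, 3.16% lower). Tmem98, whose protein binds MYRF and holds back its cleavage, was at 16.7, 13.7 and 15.1 FPKM in ICH and 9.30, 6.27 and 7.48 FPKM in sham, a log2 fold change of 0.94 ± 0.17 (SE, edgeR adjusted p = 0.0283). Its 3 ICH libraries were all above its sham libraries, and the part of other cells in its level was not tested. Zfp536, a zinc finger gene, fell with a log2 fold change of -0.48 ± 0.11 (edgeR adjusted p = 0.0401). Of 14 genes of oligodendrocyte precursors and premyelinating cells 1 rose, Pdgfra, the growth factor receptor that marks precursors and is also present in fibroblasts. Pdgfra was at 6.81, 7.89 and 7.87 FPKM in ICH and 5.44, 5.56 and 5.24 FPKM in sham, 0.43 ± 0.09 on the log2 scale (edgeR adjusted p = 0.0324), and the list median was 0.24. The count of 1 in 14 is near the share over all genes too.

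Genes of the lipid supply of myelin and of its contact with the axon were read next. Cholesterol synthesis is the pathway that provides the main lipid of myelin. Of its 21 genes listed here, 0 were called in ICH against sham by edgeR, DESeq2 or limma, which called 10.6%, 21.6% and 8.71% of all genes. An unadjusted p under 0.05 by edgeR was found for 2 of the 21, against 29.5% of all genes. The median of the 21 was -0.13. The 3 most abundant of them were Hmgcs1, the enzyme that makes HMG-CoA, at 37.3, 30.6 and 30.4 FPKM in ICH and 37.8, 33.7 and 33.5 FPKM in sham, Pmvk, a mevalonate pathway kinase, with a log2 fold change of -0.13 ± 0.13 (SE), and Srebf2, the regulator of the pathway, with -0.30 ± 0.12 (edgeR adjusted p = 0.149). Of 12 genes of the node of Ranvier and the paranode, where myelin loops attach to the axon, 4 fell and 0 rose. Over all genes 3.16% fell and 7.42% rose, and the list median was -0.35. Most of these 12 are neuronal genes. Kcna1, a potassium channel, was at 6.92, 7.61 and 8.28 FPKM in ICH and 10.3, 13.8 and 10.4 FPKM in sham, a log2 fold change of -0.64 ± 0.14 (SE, edgeR adjusted p = 0.0393). Cntnap1, the axonal paranode protein Caspr, was at 38.4, 28.5 and 29.4 FPKM in ICH and 50.6, 46.4 and 47.9 FPKM in sham, -0.63 ± 0.13 (edgeR adjusted p = 0.0357). Every ICH library was below every sham library for both. Ank3, the ankyrin of nodes, gave -0.59 ± 0.12 (edgeR adjusted p = 0.0354) and Sptbn4, a spectrin, -0.40 ± 0.08 (edgeR adjusted p = 0.0289). The 10 general neuron markers had a median of -0.50, with 2 that fell, Gad1 (-0.59) and Rbfox3 (-0.48), and their summed level was 666.0 to 928 FPKM in ICH and 998 to 1100.0 FPKM in sham. The part of neuronal RNA in the fall of the node genes was not tested.

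Of 10 genes known from stressed or disease-associated oligodendrocytes, 5 rose after ICH and 0 fell, where 7.42% of all genes rose and 3.16% fell. The list median was 0.98, and the 5 were Serpina3n, C4b, Klk6, H2-D1 and B2m. Serpina3n, a protease inhibitor, was at 189, 542 and 396 FPKM in ICH and 9.49, 15.6 and 46.2 FPKM in sham, a log2 fold change of 3.94 ± 0.70 (SE, edgeR adjusted p = 0.0262). C4b, a complement gene, gave 2.24 ± 0.37 (edgeR adjusted p = 0.0226), Klk6, a protease of oligodendrocytes, 1.78 ± 0.19 (edgeR adjusted p = 0.0214) and H2-D1, an antigen presentation gene, 1.59 ± 0.23 (edgeR adjusted p = 0.0226). Astrocytes and immune cells also express 4 of these 5, all but Klk6. Of 10 astrocyte markers 4 rose, Gfap, Aqp4, Sox9 and Aldh1l1, and 3 had a fold change below 0, with a list median of 0.34. The sum of the 10 was 1030 to 1576 FPKM in ICH and 587 to 707 FPKM in sham, and without Gfap it was 581 to 666 FPKM in ICH and 497 to 523 FPKM in sham. Of 10 microglia and myeloid markers 8 rose, led by Cd68 (2.87), Ptprc (2.64), Fcer1g (2.51) and Spi1 (2.35), and their sum was 344 to 696 FPKM in ICH and 109 to 182 FPKM in sham. The part of these cells in the 5 rises was not tested. Over the distinct genes of the 14 companion lists, edgeR and limma called 0 of 164 in Laminaria-treated ICH against ICH and 0 of 163 in Laminaria-treated ICH against sham. There 9 and 46 had an unadjusted p under 0.05 by edgeR, where 3.36% and 17.9% of all genes did. DESeq2 called 1 and 26, where it called 0.288% and 8.08% of all genes.

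**Figure D4:**
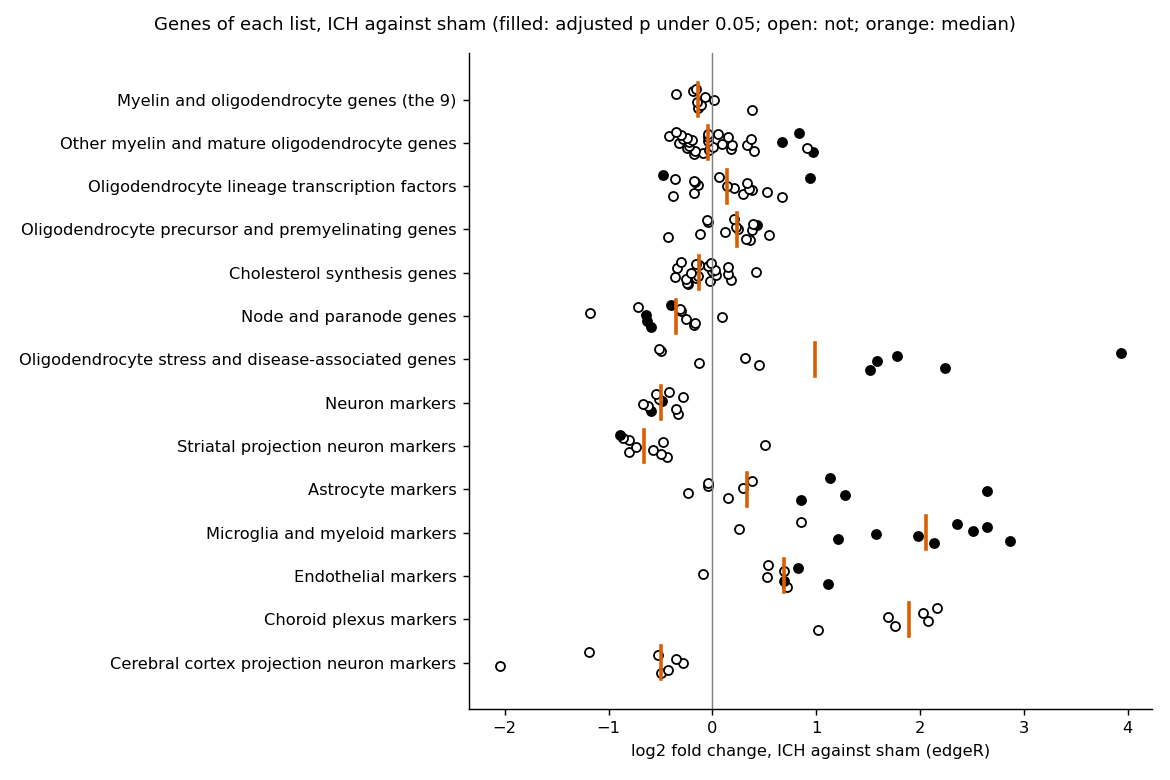
Log2 fold change of ICH over sham (x axis) for each tested gene (points) of the 9 myelin genes and of 13 other lists (rows), filled where the edgeR adjusted p was under 0.05, with the list median as an orange line. The 9 myelin genes lie between -0.35 and 0.38 with none filled, the node genes lie to the left, and the microglial and myeloid markers lie to the right.

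Of the remaining lists, 1 of 10 striatal projection neuron markers fell, Tac1 (-0.89), and 3 of 8 endothelial markers rose, Cldn5 (1.11), Pecam1 (0.82) and Emcn (0.69). By edgeR 0 of 6 choroid plexus and 0 of 7 tested cortical neuron markers were called, where 7.42% of all genes rose and 3.16% fell. Of the choroid plexus and cortical lists 4 and 1 had an unadjusted p under 0.05, DESeq2 called 3 and 1, and limma called 0 of either. Of the 10 striatal markers 9 had a log2 fold change below 0, with a list median of -0.66. Of these 10, 8 had an unadjusted p under 0.05 by edgeR, where 29.5% of all genes did. DESeq2 called 5 of them, where it called 21.6% of all genes. Ttr (2.17 ± 0.87), Clic6 (1.02 ± 0.40) and Kcnj13 (2.07 ± 0.88) were the most abundant choroid plexus markers, and Slc17a7 (-0.52 ± 0.30), Nptx1 (-0.29 ± 0.18) and Cux2 (-0.49 ± 0.23) the most abundant cortical ones (log2 fold change of ICH over sham ± SE). The calls in these lists depended on single libraries and on scaling. Over all genes edgeR called 1218 higher and 519 lower, DESeq2 2051 and 1496, and limma on FPKM rescaled to a common sum 1005 and 1141. Without sham 1, without ICH 2 or without ICH 3 edgeR called 0 of all 16414 genes, and without sham 2 it called 2. Without sham 1, 4092 genes had an unadjusted p under 0.05, and the list medians were 0.07 for other myelin genes, -0.45 for node and paranode genes and 1.08 for the stress-associated genes.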

How the data were processed

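RNA of mouse basal ganglia was sequenced in 9 libraries, and groups and library numbers were taken from the sample labels. In the table the authors deposited, each gene has 1 count and 1 FPKM value per library, and no column holds their own comparisons. Genes with a count of 0 carry a deposited FPKM of 0.0001, which was replaced by 0. The submitters' processing notes name read trimming with cutadapt 1.9, quality control with FastQC 0.10.1, alignment with HISAT2 2.0.4, StringTie 1.3.4 for assembly or quantification, and the rat build Rnor_6.0, whereas the gene identifiers and coordinates are those of mouse GRCm38. How reads were counted, on which annotation release and with which strand is not given in the sources used here. Total deposited counts were 51307799 to 74649716, and the pile-up of low counts with a median period of 3.73 means that they are not independent fragments.

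The deposited counts were scaled by TMM and compared with edgeR 4.0.16 (quasi-likelihood test, two-sided, R 4.3.3) between the 2 groups of each comparison, over all genes with a mean of 0.5 FPKM or more in the 6 libraries, with Benjamini-Hochberg adjustment over all of them and a call at an adjusted p under 0.05. Standard errors and 95% intervals were taken from the F statistic and its degrees of freedom. The fit was first tested on simulated data. Alternatives were other scalings and filters, DESeq2 1.42.0, limma 3.58.1 on log2(FPKM + 1), log2(FPKM + 0.1) and log2(TPM + 1), a single fit of all 9 libraries, a block for the replicate number, counts divided by their step, mitochondrial genes left out, and each library left out in turn. The companion lists and the correlations without sham 1, the astrocyte sum without Gfap and the fibroblast list were added after seeing the data.

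The 9 genes and the 14 companion lists were chosen with earlier results of these data known. All 9 genes are given in full. Of each companion list the text names the called genes, at most the 4 with the largest change, and any called against the list's direction, and where none was called the 3 with the highest mean FPKM. The genes with the closest profiles follow the same fixed rule. A gene that the rule also names is not reported here. B2m and the 5 fibroblast genes fall outside it and were named after their values were seen.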

Additional observations from a re-analysis of the deposited data

How the results depend on the processing

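With 0 of the 9 genes called by edgeR in each comparison, the count stayed at 0 under every alternative except DESeq2, which called 1 in ICH against sham. Some alternatives called 0 of all genes, such as those without sham 1, ICH 2 or ICH 3 in ICH against sham. Their count of 0 was therefore fixed. Of 171 values of single genes under 19 alternatives, 157 kept direction and call in ICH against sham, 169 in Laminaria-treated ICH against ICH and 171 in Laminaria-treated ICH against sham. The sign of Mobp in ICH against sham (0.02) was turned by DESeq2 size factors in edgeR (-0.0058), DESeq2 (-0.0058), no filter on low values (-0.017), edgeR's own filter (-0.017) and limma on log2(TPM + 1) (-0.0725). The sign of Mbp in Laminaria-treated ICH against ICH was turned by limma on log2(TPM + 1) (0.0103). Leaving out 1 library at a time in ICH against sham gave log2 fold changes of -0.251 to 0.0429 for Mbp, -0.196 to 0.0786 for Mog, -0.244 to 0.0784 for Mag, -0.0869 to 0.165 for Mobp and -0.490 to 0.0347 for Opalin, and in Laminaria-treated ICH against ICH -0.380 to 0.167 for Opalin. The same gave medians of the 9 genes of -0.23 to 0.04 in ICH against sham, -0.15 to -0.04 in Laminaria-treated ICH against ICH and -0.340 to -0.0580 in Laminaria-treated ICH against sham, with the values nearest or above 0 in both sham comparisons reached without sham 1. The cause of these turns was not tested.

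Same-numbered libraries did not deviate together (correlations of 0.12, -0.04 and 0.10 between ICH and sham), so the numbers were not taken as pairs. With the replicate number as a block, 0 of the 9 genes were called and their medians were -0.13, -0.10 and -0.21 in the 3 comparisons. Over all genes the block gave 696 higher and 143 lower calls in ICH against sham and 293 and 9 in Laminaria-treated ICH against sham. Over all genes, leaving out a library of ICH against sham gave between 0 calls (without ICH 2, ICH 3 or sham 1) and 1731 higher and 1010 lower calls (without ICH 1). With 3 libraries a group, the limit is the spread between libraries rather than counting error.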
